A study of Mus musculus with 2 samples.

Results

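The genes described here are 10 transcription factors of mesenchymal cells and of the epithelial-to-mesenchymal transition (EMT): Twist1, Twist2, Prrx1, Prrx2, Snai1, Snai2, Zeb1, Zeb2, Runx1 and Tcf4. They were taken by name, and all 10 were found among the 22711 genes listed for each library. RNA had been sequenced from 2 lines of immortal mouse embryonic fibroblasts, which are hybrids of the strains C57BL/6N (B6) and PWK/PhJ (PWK). The line labelled B6-Xi (strain label PWK/PhJ X C57BL/6N) has its inactive X chromosome from B6, and the line labelled PWK-Xi (strain label C57BL/6N X PWK/PhJ) has it from PWK. Both lines grew on gelatin in DMEM with NBCS, β-mercaptoethanol and penicillin-streptomycin, without any other treatment in the labels. How the cells were made immortal and whether a line is 1 clone are not stated in the labels, and each line is represented by 1 library. There is therefore no replicate error and no test between the lines, and every difference below is a difference between 2 libraries. In bulk RNA, fewer cells expressing a gene and less RNA per cell cannot be told apart.

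EMT factors of the Twist, Snai and Zeb families bind short DNA elements called E-boxes and change which adhesion and matrix genes a cell uses. Twist1 and Twist2 are basic helix-loop-helix (bHLH) proteins that pair with E proteins such as Tcf4, while Snai1, Snai2, Zeb1 and Zeb2 are zinc finger proteins best known as repressors of epithelial genes, E-cadherin (Cdh1) among them. Prrx1 and Prrx2 are paired-type homeobox proteins of limb and craniofacial mesenchyme, and Runx1 is a Runt-domain factor best known from blood formation that is also used in connective tissue cells. Fibroblasts are mesenchymal cells, so many of these genes are active in them without any transition.

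The E-box elements can be shown on the DNA itself. RefSeq windows (build GRCm38.p6) of the 250 bases before a gene's start were searched for CANNTG, the general E-box, and for CACCTG or CAGGTG, the form that Snail and Zeb proteins bind; the second motif is contained in the first, and each motif set reads the same on both strands. Of the 32851 windows in the table, 66.2% held CANNTG and 17.2% held CACCTG or CAGGTG. The windows of Twist2 and Prrx1 are shown because these genes had the largest total differences among the more abundant factors, that of Snai1 because it was the window of a Snail gene that held the motif, and that of Epcam, an epithelial adhesion gene, as a gene of the opposite cell state. E-boxes are in capitals.
Twist2 (chr1:91801211-91801460, plus strand): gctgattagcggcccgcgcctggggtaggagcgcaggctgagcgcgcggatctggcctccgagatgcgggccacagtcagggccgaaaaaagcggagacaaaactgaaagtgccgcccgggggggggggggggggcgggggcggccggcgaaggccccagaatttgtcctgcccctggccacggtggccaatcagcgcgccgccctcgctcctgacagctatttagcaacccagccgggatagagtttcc
Prrx1 (chr1:163313651-163313900, minus strand): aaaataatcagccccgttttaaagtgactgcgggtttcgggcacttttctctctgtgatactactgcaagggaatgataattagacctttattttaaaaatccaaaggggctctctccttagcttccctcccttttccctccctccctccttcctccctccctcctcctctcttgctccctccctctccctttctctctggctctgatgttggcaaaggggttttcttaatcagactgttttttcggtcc
Snai1 (chr2:167537945-167538194, plus strand): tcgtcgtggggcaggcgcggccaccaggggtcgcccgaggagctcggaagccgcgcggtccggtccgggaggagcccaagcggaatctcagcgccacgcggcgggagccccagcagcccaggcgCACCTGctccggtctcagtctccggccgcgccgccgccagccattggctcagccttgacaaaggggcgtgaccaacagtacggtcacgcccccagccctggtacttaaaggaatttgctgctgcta
Epcam (chr17:87635729-87635978, plus strand): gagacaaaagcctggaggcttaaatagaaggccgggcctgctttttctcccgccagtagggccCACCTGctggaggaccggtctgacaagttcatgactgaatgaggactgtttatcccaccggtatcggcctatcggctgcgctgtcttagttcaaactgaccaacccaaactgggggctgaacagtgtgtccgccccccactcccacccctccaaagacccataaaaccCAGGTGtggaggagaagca
Snai1 held a CACCTG that begins 126 bases before its start, and Epcam held CACCTG and CAGGTG that begin 187 and 19 bases before its start. Windows were matched for 7 of the 10 factors, and 2 of the 7, Snai1 and Runx1, held CANNTG. This counts factors, of which Zeb2 and Runx1 had more than 1 window, whereas the 66.2% above counts windows. Of the Runx1 starts, 1 held 3 E-boxes, CAGGTG among them. A match describes the letters and is not evidence of binding.

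Levels are in FPKM (fragments scaled for the length of the transcript and the size of the library), summed over the B6 and the PWK allele unless an allele is named. A value listed at 0 can be a failed estimate in these files, since Vim, a gene that fibroblasts use, is at 0 in both. The 4 highest factors in both lines were Twist2, Prrx1, Prrx2 and Snai2, and none of the others exceeded 12.4 FPKM. With Snai1, the next in order, they made up 92.3% of the summed FPKM of the 10 factors in B6-Xi, and 92.9% in the other line. The sum was 243.2 FPKM in B6-Xi against 367.3 FPKM in PWK-Xi. In the sums, that gap lay almost wholly in 1 allele. The B6 alleles of the 10 factors summed to 106.9 FPKM in B6-Xi against 230.8 FPKM in PWK-Xi, whereas the PWK alleles summed to 136.3 and 136.4 FPKM. The gap came mainly from Twist2 and Prrx1, both on chromosome 1, whose B6 alleles were 80.2 and 48.1 FPKM higher in PWK-Xi. The PWK alleles of single factors changed in both directions, among them Prrx2 by -13.1 FPKM and Prrx1 by 8.09 FPKM.

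**Figure D1:**
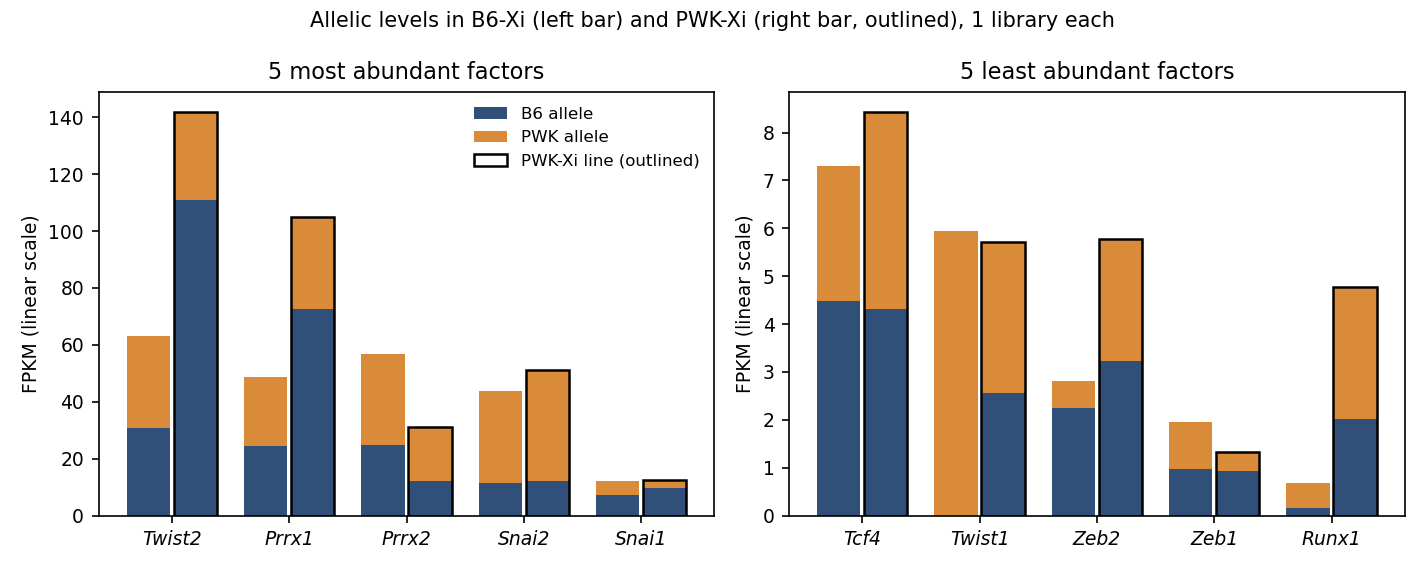
Stacked bars give the FPKM of the B6 allele (blue) and the PWK allele (orange) of each factor in B6-Xi (left bar) and PWK-Xi (right bar, outlined), on linear axes that differ between the panels. The B6 allele of Twist2 stands at 30.9 FPKM in B6-Xi against 111.1 FPKM in PWK-Xi, while its PWK allele stands at 32.1 and 30.7 FPKM.

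In B6-Xi the order was Twist2 (63.0 FPKM), Prrx2 (56.8), Prrx1 (48.6), Snai2 (43.8), Snai1 (12.3), Tcf4 (7.29), Twist1 (5.95), Zeb2 (2.81), Zeb1 (1.95) and Runx1 (0.678). In PWK-Xi it was Twist2 (141.8 FPKM), Prrx1 (104.8), Snai2 (51.2), Prrx2 (31.1), Snai1 (12.4), Tcf4 (8.43), Zeb2 (5.78), Twist1 (5.72), Runx1 (4.78) and Zeb1 (1.34). With 1 library per line it cannot be said which neighbours in these orders differ. Twist2 was above 93.3% (B6-Xi) and 96.9% (PWK-Xi) of the genes that reached 1 FPKM, so it ranked among abundant transcripts, while Zeb1 was above 16.5% and 5.93% of them.

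Differences in total level were taken as log2((PWK-Xi + 1)/(B6-Xi + 1)) for genes that reached 5 FPKM in either line, which held for 8 of the 10 factors and not for Zeb1 and Runx1. On this scale the differences of low genes are understated. The median over all 5241 such genes above 0 in both lines was 0.19, so values relative to it are given too. Of the 8 factors, 2 (Twist2 and Prrx1) were at least 2-fold higher in PWK-Xi, where 17.8% of the 5490 genes compared were, and 0 were at least 2-fold lower, where 5.83% were. The median log2 difference of the 8 factors was 0.20, against 0.23 for all 5490 genes. Relative to the all-gene median, none of the 8 was 2-fold higher (14.0% of genes were) and 1, Prrx2, was 2-fold lower (8.67% were).

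The Twist genes differed from each other in level, in difference between the lines and in allelic use. Twist2, known from dermal and other connective tissue, had 30.9 FPKM from B6 and 32.1 FPKM from PWK in B6-Xi, and 111.1 FPKM from B6 and 30.7 FPKM from PWK in PWK-Xi. Its total was 2.25-fold higher in PWK-Xi (log2 difference 1.16, or 0.96 relative to all genes), with a 3.60-fold higher B6 allele and a PWK allele at 0.957 of its level in B6-Xi. Twist1, a regulator of cranial and limb mesenchyme, had nearly the same total in the lines, 5.95 and 5.72 FPKM, but made up of different alleles. In B6-Xi its B6 allele was listed at 0 and its PWK allele had 5.95 FPKM; in PWK-Xi they had 2.55 and 3.17 FPKM. Twist2 was 10.6 times as high as Twist1 in B6-Xi and 24.8 times as high in PWK-Xi, on the FPKM scale.

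Prrx1 was higher and Prrx2 lower in PWK-Xi than in B6-Xi. Prrx1 had 24.5 FPKM from B6 and 24.1 FPKM from PWK in B6-Xi, and 72.6 and 32.2 FPKM in PWK-Xi. Its total was thus 2.16-fold higher in PWK-Xi (log2 difference 1.09, or 0.90 relative to all genes), and the B6 allele differed 2.97-fold while the PWK allele differed 1.34-fold. Prrx2 had 24.8 FPKM from B6 and 31.9 FPKM from PWK in B6-Xi, against 12.3 and 18.8 FPKM in PWK-Xi. It was 1.83-fold lower in PWK-Xi (log2 difference -0.85, or -1.04 relative to all genes), and both alleles were lower, at 0.495 and 0.589 of their levels in B6-Xi. The ratio of Prrx1 to Prrx2 was 0.856 in B6-Xi but 3.37 in PWK-Xi, while the sum of both genes was 105.4 and 135.9 FPKM.

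The Snail genes had similar totals in the lines, and the allelic make-up of Snai1 differed. Snai1, the zinc finger repressor first linked to E-cadherin silencing, had 12.3 FPKM in B6-Xi against 12.4 FPKM in PWK-Xi (log2 difference -0.19 relative to all genes). In B6-Xi 7.40 FPKM came from B6 and 4.93 FPKM from PWK, and in PWK-Xi 9.85 and 2.53 FPKM did, so that the B6 allele was 2.46 FPKM higher and the PWK allele lower by a like amount (-2.40 FPKM). Snai2, also called Slug, had 11.4 FPKM from B6 and 32.4 FPKM from PWK in B6-Xi, and 12.0 and 39.2 FPKM in PWK-Xi. Its total differed by 0.22 on the log2 scale, close to the all-gene median, and PWK gave more than B6 in each line. Snai2 was 3.55 times as high as Snai1 in B6-Xi and 4.13 times in PWK-Xi.

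Zeb1, Zeb2, Runx1 and Tcf4 were all below 9 FPKM in both lines. Zeb2 had 2.25 FPKM from B6 and 0.563 FPKM from PWK in B6-Xi, and 3.22 and 2.56 FPKM in PWK-Xi, a total 2.06-fold higher in PWK-Xi but a log2 difference of 0.83 with the pseudocount of 1 FPKM. Zeb1 had 0.976 FPKM from each allele in B6-Xi, and 0.926 FPKM from B6 and 0.412 FPKM from PWK in PWK-Xi. Runx1 had 0.169 FPKM from B6 and 0.508 FPKM from PWK in B6-Xi, and 2.02 and 2.76 FPKM in PWK-Xi. Its total was 7.05-fold higher in PWK-Xi, the largest ratio of the 10 factors, but it started from the lowest level of all and stayed under 5 FPKM. Tcf4, the E protein, had 4.49 FPKM from B6 and 2.80 FPKM from PWK in B6-Xi and 4.32 and 4.11 FPKM in PWK-Xi, a log2 difference of 0.18, or -0.0093 relative to all genes.

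The B6 share is the FPKM of the B6 allele as a percentage of both alleles. In B6-Xi it was 0% for Twist1, 25% for Runx1, 26.1% for Snai2, 43.8% for Prrx2, 49.0% for Twist2, 50.0% for Zeb1, 50.3% for Prrx1, 60.0% for Snai1, 61.5% for Tcf4 and 80.0% for Zeb2. In PWK-Xi it was 23.5% for Snai2, 39.6% for Prrx2, 42.3% for Runx1, 44.6% for Twist1, 51.2% for Tcf4, 55.7% for Zeb2, 69.2% for Prrx1, 69.2% for Zeb1, 78.3% for Twist2 and 79.6% for Snai1. Snai2, Prrx2, Runx1 and Twist1 were below 50% in both lines, and Snai1, Zeb2, Tcf4 and Prrx1 were above it in both. With each allele scaled to the same autosomal sum, Prrx1 in B6-Xi (49.7%) and Tcf4 in PWK-Xi (48.9%) fell below 50%, as did Zeb1 in B6-Xi (49.4%). Unscaled, Twist2 was on different sides of 50%, and Zeb1 was at 50% in 1 line.

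These shares have a limited resolution. In B6-Xi the shares of 7 factors equalled, within 0.001 percentage points, a ratio of whole numbers up to 20, as did 64.9% of all genes that reached 1 FPKM; Zeb2 stood at 4 to 5, Runx1 at 1 to 4 and Snai1 at 3 to 5. In PWK-Xi this held for 1 factor, Zeb1 at 9 to 13, and for 19.1% of genes. Read depth is unknown. Apart from Twist1 at 0, Zeb1, Runx1, Zeb2 and Snai1 had the simplest ratios in B6-Xi, with 2 to 5 as the larger number. Tcf4 at 8 to 13 and Prrx2 at 7 to 16, an abundant factor, were also among the 7.

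Among factors with at least 1 FPKM, a B6 share of at most 25% was found for 1 of 9 in B6-Xi (Twist1; 17.2% of all genes) and 1 of 10 in PWK-Xi (Snai2; 4.09% of genes). A share of at least 75% was found for 1 of 9 in B6-Xi (Zeb2; 11.8% of genes) and 2 of 10 in PWK-Xi (Twist2 and Snai1; 11.7%). Between the lines the B6 share was at least 20 points higher in PWK-Xi for 2 of 9 factors, Twist1 and Twist2, where 23.6% of 7689 genes were, and at least 20 points lower for 1, Zeb2, where 13.1% were. Just inside that threshold lay Zeb2 at -24.3 points, and just outside it lay Snai1 at 19.6, Zeb1 at 19.2 and Prrx1 at 18.9 points. The median change of the 9 factors was 18.9 points, against 3.17 points over all 7689 genes. That median is the value of Prrx1. From B6-Xi to PWK-Xi the chromosome median rose from 51.5% to 70.2% for Prrx1 (chromosome 1, as Twist2) and from 0% to 52.5% for Twist1 (chromosome 12). For Prrx2, Snai1 and Zeb2 (chromosome 2) it fell from 60.7% to 52.8%. How much of the gap to all genes goes with the chromosomes of the factors was not tested.

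Several chromosomes of these lines have unequal shares over many genes, so each factor was set beside the 10 nearest genes on each side with at least 1 FPKM in both lines (15 genes in all for Zeb1). Gene order came from a later assembly than the build named for the files. Twist1 lies on chromosome 12, where the median B6 share of the 20 nearest genes was 0% in B6-Xi against 51.3% in PWK-Xi; the next genes, Twistnb and Snx13, had 4.35% and 0% in B6-Xi. The allelic state of Twist1 thus matched its surroundings, but its total did not. The nearest genes had a median log2(PWK-Xi/B6-Xi), here without a pseudocount, of 1.34, whereas Twist1 had -0.06, and 18 of the 20 had a larger value.

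**Figure D2:**
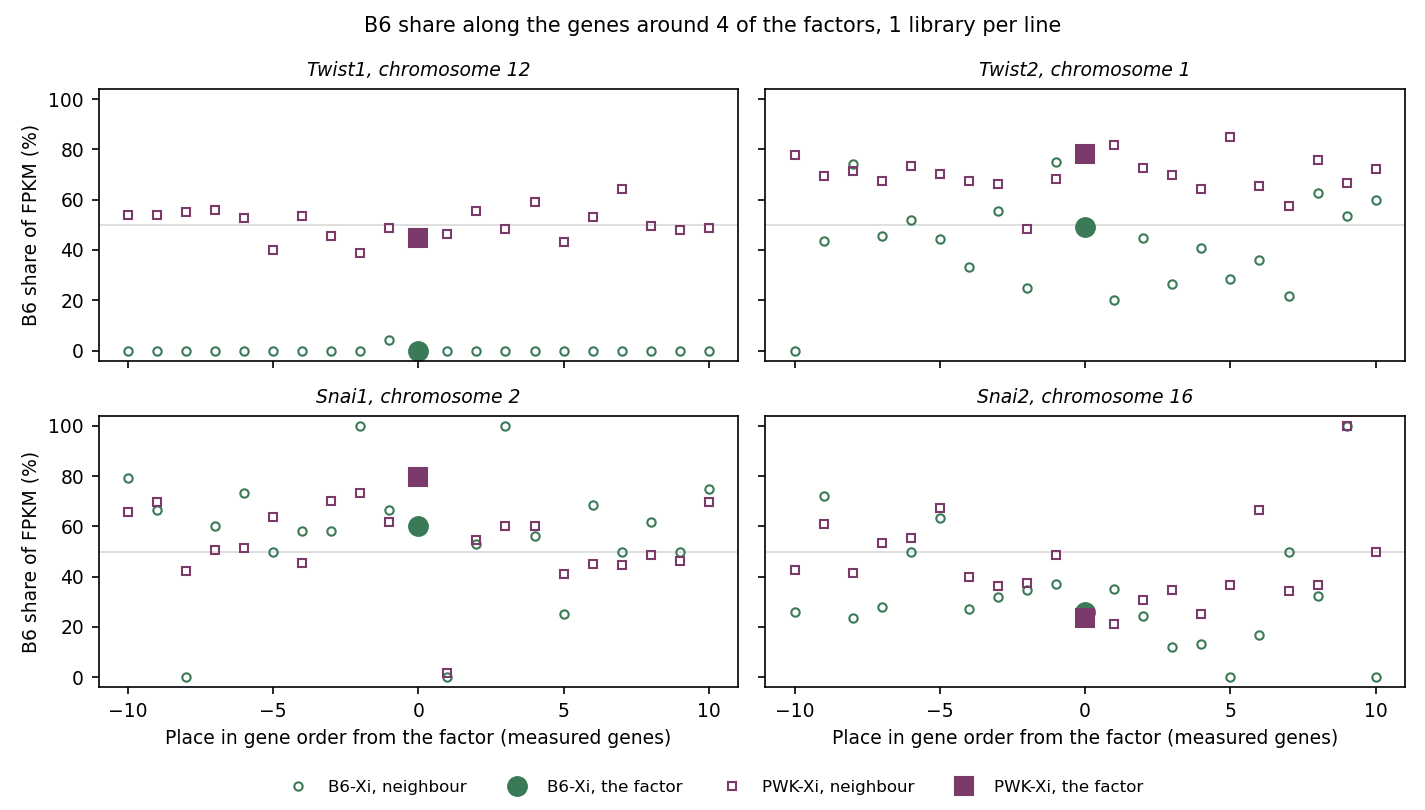
Each panel plots the B6 share (percent of FPKM, vertical axis) of the 10 measured genes on each side of a factor by their place in gene order (horizontal axis), with circles for B6-Xi, squares for PWK-Xi and large filled symbols for the factor itself. Around Twist1 the B6-Xi values lie at or near 0% and the PWK-Xi values near 50%, while Snai1 in PWK-Xi, at 79.6%, lies above all 20 neighbours.

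Twist2 and Prrx1 both lie on chromosome 1. Over 415 genes of chromosome 1 with both alleles above 0 in both lines, the median B6 allele was 2.06-fold higher in PWK-Xi and the median PWK allele was at 0.982 of its level in B6-Xi, against 1.14 and 1.08 over 6512 autosomal genes. The 3.60-fold higher B6 allele of Twist2 was exceeded by 70 of the other 414 genes, and the 2.97-fold higher B6 allele of Prrx1 by 103. The B6 share of Prrx1 in PWK-Xi, 69.2%, equalled the median of its nearest genes (69.2%), and that of Twist2, 78.3%, was above 18 of its 20 nearest genes (median 69.7%). In B6-Xi both genes were near 50%, as were their chromosome (51.5%) and, more loosely, their nearest genes (44.1% for Twist2 and 48.7% for Prrx1). The next measured genes beside Twist2, Asb1 and Hdac4, had B6 shares of 68.1% and 81.9% in PWK-Xi, and Prrc2c and Gorab beside Prrx1 had 68.5% and 66.0%.

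Prrx2, Snai1 and Zeb2 all lie on chromosome 2, with a median B6 share of 60.7% in B6-Xi against 52.8% in PWK-Xi, and each stood differently to it. The distance of Prrx2 from the median of its nearest genes was -17.0 points in B6-Xi, and in PWK-Xi, at -14.1 points, it had a lower share than all 20 of them. Snai1 lay at the median of its nearest genes in B6-Xi (60.0% against 59.2%) but 26.4 points above it in PWK-Xi, where all 20 were lower and 23 of 619 genes of the chromosome were higher. Zeb2 lay 24.7 points above the median of its nearest genes in B6-Xi and 7.08 points above it in PWK-Xi. With 5 nearest genes on each side, the distances of Snai1 in PWK-Xi and Zeb2 in B6-Xi were 19.5 and 18.8 points. Beside them, Asb6 and Ptges (next to Prrx2) had 48.3% and 76.7% in B6-Xi, Rnf114 and Ube2v1 (next to Snai1) had 66.7% and 0%, and Gtdc1 and Acvr2a (next to Zeb2) had 60.0% and 42.9%.

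**Figure D3:**
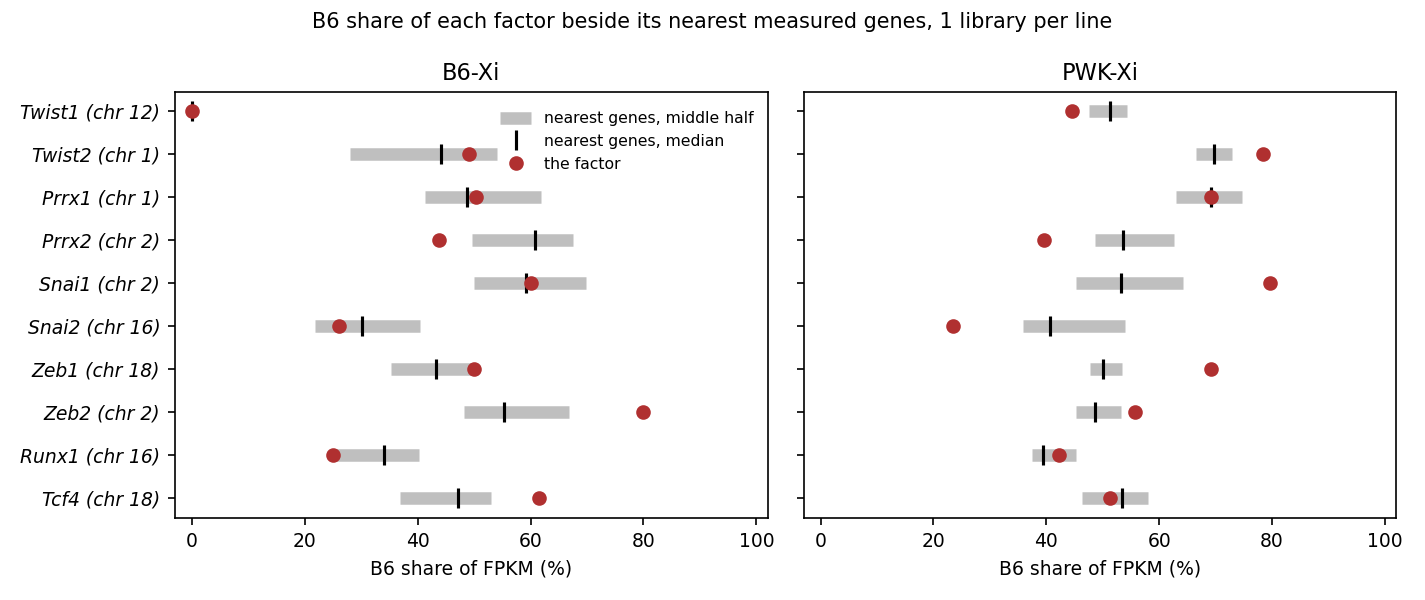
For each factor (rows, with its chromosome) the red point gives its B6 share in percent of FPKM, the black tick the median of its nearest measured genes and the grey bar their interquartile range, in B6-Xi (left) and PWK-Xi (right). Snai1 in PWK-Xi (79.6% against 53.1%) and Zeb2 in B6-Xi (80.0% against 55.3%) lie farthest from their neighbours, and Prrx1 lies close to them in both lines.

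Snai2 and Runx1 lie on chromosome 16, where the median B6 share was 33.3% in B6-Xi against 41.1% in PWK-Xi. The distance of Snai2 from the median of its nearest genes was -3.98 points in B6-Xi, and it was -17.2 points in PWK-Xi, where 8 of the 266 other genes of the chromosome had a lower share. Its neighbours Abcc1 and Ube2v2 had 48.4% and 21.1% in PWK-Xi. The distance of Runx1 was -9.06 points in B6-Xi, while in PWK-Xi it was 2.84 points. Its log2 ratio without a pseudocount was 2.82, and the median of its nearest genes was 0.51. These had to reach 1 FPKM in both lines, which Runx1 did not in B6-Xi, so genes as low as Runx1 there are not among them. Rcan1 and Cbr1, the next genes, had 2.68 and 2.73 FPKM and 11.0 and 11.6 FPKM in the lines.

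On chromosome 18, where the median over the 215 genes other than Tcf4 was 46.0% in B6-Xi against 51.8% in PWK-Xi, the factors leaned to B6 in different lines. Tcf4 was 14.3 points above the median of its nearest genes in B6-Xi, where 18 of the 20 were lower, and close to it in PWK-Xi (51.2% against 53.4%). Zeb1 was 6.67 points above its nearest genes in B6-Xi and 19.2 points above them in PWK-Xi, where 14 of the 15 were lower. These shares have a limited resolution. Tcf4 in B6-Xi stood at 8 to 13, and Zeb1 in PWK-Xi at 9 to 13 with a total of 1.34 FPKM. Svil and Arhgap12, next to Zeb1, had B6 shares of 38.3% and 51.5% in PWK-Xi, and Rnmt and 4930503L19Rik, next to Tcf4, had 45.1% and 59.8%.

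For the 7 factors that reached 5 FPKM in both lines, the gene with the most similar pattern was sought by the Euclidean distance over 4 values, log2(FPKM + 1) of each allele in each line, among 7680 other genes. It was Pxdn for Twist1 (distance 0.22), Dtymk for Twist2 (0.27), Degs1 for Prrx1 (0.43), Hrsp12 for Prrx2 (0.36), Sac3d1 for Snai1 (0.38), Emc4 for Snai2 (0.60) and Cnrip1 for Tcf4 (0.13). Dtymk had 28.8 and 36.0 FPKM from B6 and PWK in B6-Xi, against 98.2 and 32.2 FPKM in PWK-Xi, close to the 4 values of Twist2. Such a match rests on 2 libraries.

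Partners and antagonists of the factors were read from a list of 11 genes. Of 6 that reached 5 FPKM in a line, 1 was at least 2-fold higher in PWK-Xi (17.8% of all genes compared were) and 0 were lower (5.83%), with a median log2 difference of 0.44, so the count is near the share of all genes. Id proteins are helix-loop-helix proteins without a DNA-binding part that hold E proteins away from DNA; Id1, Id2 and Id3 were the most abundant of the list, and Id4 was listed at 0 in both lines. Id3 had 303.8 FPKM in B6-Xi against 180.6 FPKM in PWK-Xi, and Id1 had 67.9 and 97.3 FPKM. Id2, on chromosome 12 like Twist1, had 49.2 and 124.7 FPKM with B6 shares of 0% and 57.9%, a log2 difference of 1.32 that stayed above 1 relative to all genes (1.13). The E proteins Tcf3 (4.80 and 5.83 FPKM) and Tcf12 (9.65 and 12.7 FPKM) lay on either side of Tcf4. Cbfb, the partner of Runx proteins, had 13.2 and 20.6 FPKM, while Runx2 had 1.13 and 0.629 FPKM and Runx3 was listed at 0 in both lines.

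Corepressors and other cofactors of Snail, Zeb and Twist proteins differed little where they could be compared: of 12 listed, 10 reached 5 FPKM in a line, 0 of these passed 2-fold in either direction (17.8% of all genes were higher and 5.83% lower), and their median log2 difference was 0.15. The histone deacetylase genes Hdac1 (24.7 and 22.2 FPKM) and Hdac2 (21.7 and 26.7 FPKM) were the highest, followed in both lines by the Polycomb methyltransferase gene Ezh2 (12.8 and 17.6 FPKM). Ctbp2 had 10.2 and 12.6 FPKM. Of the other members, Sin3a had 1.40 and 2.81 FPKM, a ratio of 2.01 below the minimum level, and Ctbp1 was listed at 0 in both files.

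Of 35 other transcription factors of mesenchyme found in the files, 9 reached 5 FPKM in a line, while 16 were listed at 0 in B6-Xi and 8 in both lines, values that may be failed estimates. Over all 22711 genes, 10127 were above 0 in B6-Xi and 12907 in PWK-Xi. Of the 9, 1 was at least 2-fold lower in PWK-Xi (5.83% of all genes were) and 0 were higher (17.8%), with a median log2 difference of -0.07. Relative to the all-gene median 3 of the 9 were 2-fold lower (8.67% of all genes). The 1 was Sox9, the cartilage regulator, with 19.3 FPKM in B6-Xi against 3.85 FPKM in PWK-Xi (log2 difference -2.07). Sox4 had 16.4 and 8.30 FPKM, Ebf1 8.99 and 13.5 FPKM, and Nfix 9.90 and 9.41 FPKM. The highest of these in PWK-Xi, Ebf1, was thus below Twist2, Prrx1, Snai2 and Prrx2 there.

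Mesenchymal effector genes went both ways. Of 21 that reached 5 FPKM in a line, 3 were at least 2-fold higher in PWK-Xi (17.8% of all genes were) and 5 at least 2-fold lower (5.83%), with a median log2 difference of -0.27. Relative to the all-gene median these counts were 2 and 7, where 14.0% of all genes were higher and 8.67% lower. Higher were Tnc, the matrix glycoprotein tenascin C (4.50 and 119.9 FPKM, with B6 shares of 0% and 62.3%) and the platelet-derived growth factor receptor genes Pdgfra (7.13 and 28.2 FPKM) and Pdgfrb (10.2 and 21.4 FPKM). Relative to all genes Pdgfrb was under the threshold, at 0.81. Lower were Acta2, a smooth muscle actin (365.8 and 15.0 FPKM), S100a4 (13006 and 2321 FPKM), Tagln (68.5 and 23.4 FPKM), the matrix gene Sparc (579.5 and 252.4 FPKM) and Col3a1 (6.04 and 2.21 FPKM). Cdh2, or N-cadherin, and Cdh11, adhesion genes of mesenchymal cells, had 8.08 and 7.65 FPKM and 51.4 and 41.0 FPKM. Vim, at 0 in both files, cannot be read.

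**Figure D4:**
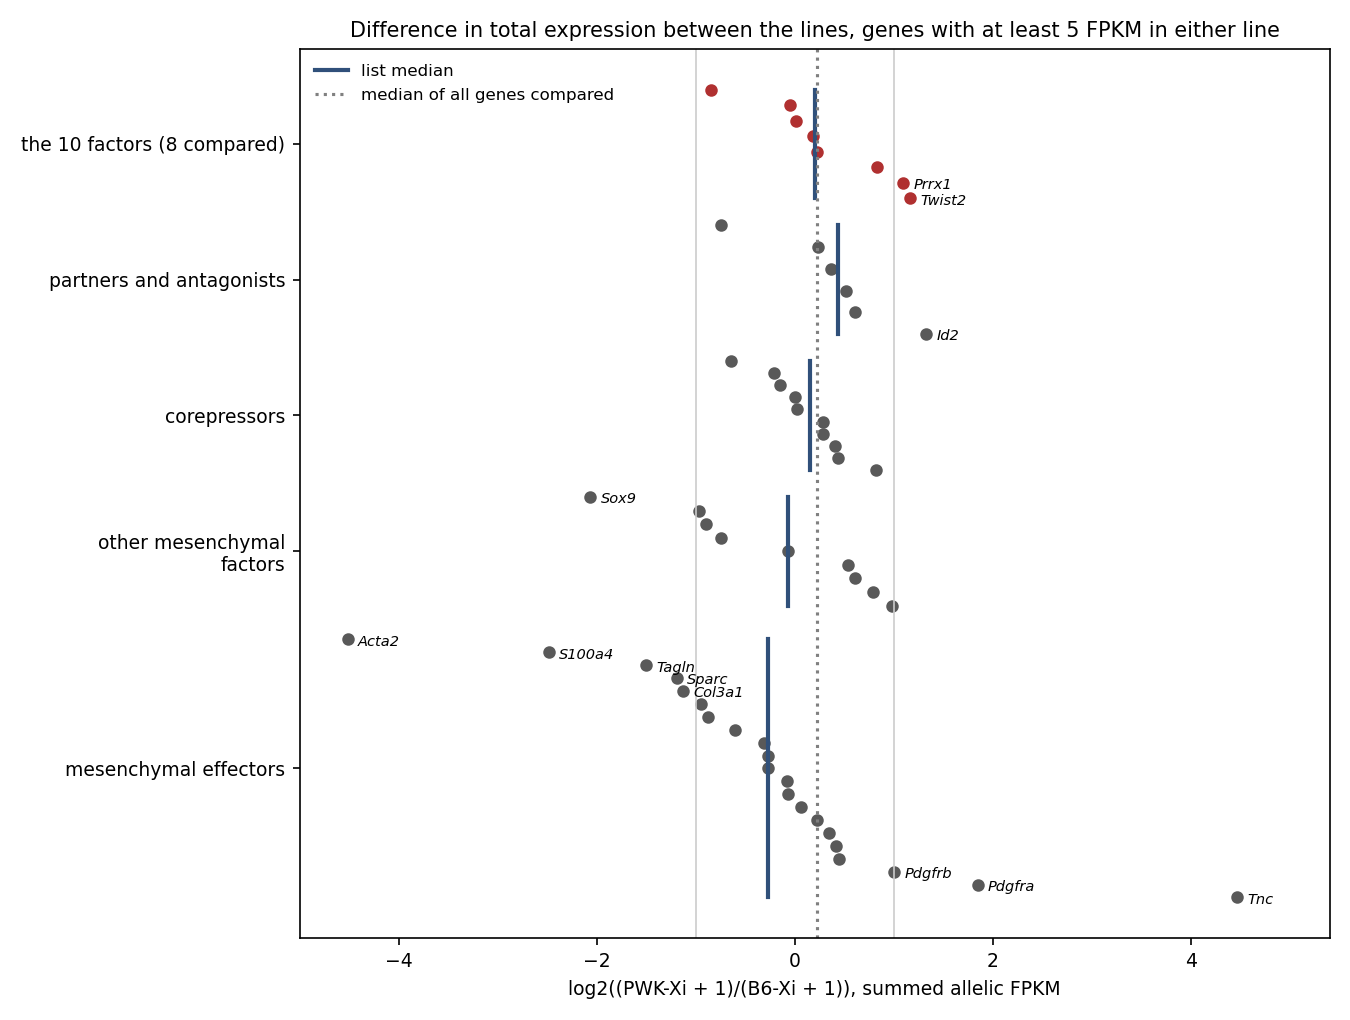
Each point is the log2 difference in summed FPKM (PWK-Xi over B6-Xi, pseudocount 1) of a gene that reached 5 FPKM in a line, in rows by list; blue lines are list medians, the dotted line is the median of all genes compared and thin lines mark 2-fold. The 8 factors lie between -0.85 and 1.16 with a median of 0.20, and the 21 effector genes between -4.52 (Acta2) and 4.46 (Tnc).

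Epithelial genes, with Cdh1 as a known target of repression by Snail and Zeb proteins, stayed under 5 FPKM. Repression of these genes by the factors was not tested. Of 22, 20 were listed at 0 in B6-Xi and 7 in PWK-Xi, so that 13 were at 0 in B6-Xi alone, and the list summed to 6.16 and 17.3 FPKM. Fewer genes of any kind were above 0 in B6-Xi: 10127 of 22711, against 12907 in PWK-Xi. Cdh1, listed at 0 in B6-Xi, had 0.191 FPKM in the other line, and Epcam was listed at 0 in both. The highest were Jup, which also serves in non-epithelial junctions (3.48 and 4.45 FPKM), Cldn3 (listed at 0, and 4.33 FPKM), Krt19 (2.68 and 0.782 FPKM) and Spint1 (listed at 0, and 2.14 FPKM). In PWK-Xi, Jup and Cldn3 were thus near the level of Runx1 (4.78 FPKM) and above Zeb1 (1.34 FPKM). Of 11 epithelial regulators 6 were listed at 0 in both lines, and the only member above 1 FPKM was Klf5, which other cell types also use, with 3.43 and 10.7 FPKM. Grhl2 and Esrp1, defining regulators of epithelia, did not exceed 0.1 FPKM.

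As a check of the cell label, the fibroblast genes Col1a1 (54.6 and 35.5 FPKM), Col1a2 (134.3 and 69.2 FPKM) and Fn1 (24.3 and 32.7 FPKM) were present in both lines. Markers of other cell types had small sums, in which many values are listed at 0 and may be failed estimates: endothelial genes (6 listed) summed to 0.0476 and 0.205 FPKM, immune genes (7 found) to 1.56 and 3.55 FPKM, nearly all from Cd68, neural genes (7) to 3.68 and 8.63 FPKM, mostly Tubb3, and skeletal muscle genes (7) to 0 and 2.12 FPKM, nearly all from Des (2.11 FPKM). The PWK-Xi sum of the neural genes included 2.19 FPKM of Sox2, wholly from the B6 allele (100%), while Sox2 was listed at 0 in B6-Xi. Other genes at 0 in B6-Xi, such as Cldn3 and Des, also had a B6 share of 100% in PWK-Xi, whereas Spint1 had 28.6%. Pecam1 and Ptprc did not exceed 0.1 FPKM and Myod1 was listed at 0 in both lines. Summed over all genes, the B6 and the PWK alleles had 140658 and 144739 FPKM in B6-Xi, against 138131 and 118065 in PWK-Xi, and more genes were above 0 in PWK-Xi (12907) than in B6-Xi (10127). The part of these library differences in the values above was not tested.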

How the data were processed

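Polyadenylated RNA of 1 library per line was prepared with Smart-seq2, per the labels' protocols. HISAT2 2.2.0, StringTie 2.1.1, Trim Galore 0.6.4 and the build mm9 appear in the submitters' processing notes. The assignment of reads to strains, the treatment of paralogs and the use of strand are not given in the sources used here. For each library the authors deposited FPKM values for the B6 and the PWK allele of 22711 genes. FPKM are not counts, the depth is unknown, and no interval is given. Groups came from the sample titles.

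Alleles were summed for totals. Expression differences used a pseudocount of 1 FPKM and a minimum of 5 FPKM in either line, shares used no pseudocount and at least 1 FPKM, and 2-fold, 25%, 75% and 20 points were the thresholds. Chromosomes and gene order came from GENCODE M21 and RefSeq (GRCm38), without coordinates except for promoter windows; 21631 symbols matched by GENCODE name, 196 by RefSeq symbol, 802 by RefSeq synonym, and 82 did not match. Named are all 10 factors, of each list the 4 most abundant genes and up to 6 past 2-fold, the nearest gene on each side and the most similar gene; other genes named were chosen after their values were seen. Some genes of the lists are not reported here and stay out of the list counts. The factors and lists were chosen with earlier results of these data known. Scripts ran under Python 3.11.15 with pandas 2.3.3, numpy 2.4.6 and matplotlib 3.10.9 and were tested on simulated data. Alternatives were another pseudocount, other minimums, centring, scaling of alleles and fewer neighbours.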

Additional observations from a re-analysis of the deposited data

How the results depend on the processing

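No paired analysis was possible because each line has 1 library, and none could be left out. Of 126 values under the alternatives, 105 kept their side of the threshold (counts: stayed within 1.5 times), 21 did not and 0 of those past a threshold changed direction. Below the threshold, centring turned the small differences of Snai1 and Tcf4 negative (-0.19 and -0.0093). Centring on the all-gene median left 0 factors 2-fold higher (Twist2 0.96, Prrx1 0.90) and 1 lower (Prrx2, -1.04), and gave 3 other mesenchymal factors 2-fold lower. Zeb2 passed 2-fold with a pseudocount of 0.1 (1.01) and with none (1.04). With a minimum of 5 FPKM, the factors with a B6 share of at least 75% in B6-Xi, and those at least 20 points lower in PWK-Xi, numbered 0, since Zeb2 left the comparison. Scaling the alleles to equal autosomal sums changed 0 counts of factors and moved Runx1 in B6-Xi from 25% to 24.5%, Prrx1 in B6-Xi to 49.7% and Tcf4 in PWK-Xi to 48.9%. Of the nearest-gene comparisons, the factors 20 points away numbered 0 in each line with 5 genes on each side. With a minimum of 5 FPKM for the neighbours, they numbered 0 in B6-Xi and 2 in PWK-Xi (Snai1 27.1 and Zeb1 21.4 points). The factors themselves did not have to reach that minimum here, and Zeb1 was below it in both lines (1.95 and 1.34 FPKM). A filter of 1 FPKM gave 3 of the factors 2-fold higher, Runx1 (1.78) among them. The same filter gave 2 partners, 2 other mesenchymal factors and 3 epithelial genes 2-fold higher, and 1 epithelial gene lower. A pseudocount of 0.1 gave 1 other mesenchymal factor higher and 2 lower. Unknown depth limits all shares.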

Other observations

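Some developmental transcription factors stood at 0 in the B6-Xi file but were measured in PWK-Xi: Hand2, a bHLH factor of heart and limb, with 4.09 FPKM, Creb3l1, a factor that activates collagen genes, with 3.47 FPKM, and Msx1, a homeobox factor of limb and face, with 1.68 FPKM. They were chosen after their values were seen, and more genes of any kind were above 0 in PWK-Xi (12907) than in B6-Xi (10127). Hand2 came wholly from B6 (100%) in PWK-Xi, as did Sox2, Cldn3 and Des, while Creb3l1 and Msx1 had B6 shares of 30.8% and 25%. A value listed at 0 can be a failed estimate in these files, since Vim is also at 0, so no fold is given.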
